A study of Mus musculus with 2 samples.

Results

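The NRF2 group described here holds 10 genes: Nfe2l2, which encodes the transcription factor NRF2, Keap1, which encodes its inhibitor, and 8 genes of enzymes that NRF2 is known to induce (Nqo1, Gclc, Gclm, Gss, Gsr, Txnrd1, Srxn1 and G6pdx). They were chosen by gene symbol, and all 10 were found among the 10982 genes of the deposited table. RNA sequencing was done on cultured cells that the labels call mouse neonatal cardiomyocytes, heart muscle cells from newborns. Of 16 cardiomyocyte markers only 3 had a value, as given further below. There were 2 libraries: 1 of cells transfected with a negative control, the other of cells transfected with an antagomir, a modified antisense oligonucleotide, against FERPIR (DQ69304), a piRNA, which is a short RNA of the kind that PIWI proteins bind. A treatment label of PBS is shared by both libraries, and no strain, dose or time after transfection was among the labels. With 1 library per group no difference has a replicate check, no p-value is given, and every value describes these 2 libraries.

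NRF2 is made all the time and destroyed all the time. In unstressed cells KEAP1 holds it on a CUL3 ubiquitin ligase that marks it for the proteasome. Oxidants and electrophiles modify cysteines of KEAP1, NRF2 then escapes, pairs with a small MAF protein and binds the antioxidant response element in front of genes for glutathione synthesis, thioredoxin recycling and NADPH supply. Heart muscle cells, which respire heavily, are known to rely on these enzymes against peroxides, and lipid peroxides are the trigger of ferroptosis. Because NRF2 is set mainly by protein stability, the RNA level of Nfe2l2 does not measure NRF2 activity, and that activity was not assayed directly.

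To show what stands in front of the 2 regulator genes, which differed between the libraries in opposite directions, the 250 bases before the RefSeq start site of each are given, on the strand of the gene and in build GRCm38.p6. Nfe2l2 lies at chr2:75704664-75704913 (minus strand) and Keap1 at chr9:21239333-21239582 (minus strand). Capitals mark the core letters of the antioxidant response element, TGACNNNGC, searched on both strands.
Nfe2l2: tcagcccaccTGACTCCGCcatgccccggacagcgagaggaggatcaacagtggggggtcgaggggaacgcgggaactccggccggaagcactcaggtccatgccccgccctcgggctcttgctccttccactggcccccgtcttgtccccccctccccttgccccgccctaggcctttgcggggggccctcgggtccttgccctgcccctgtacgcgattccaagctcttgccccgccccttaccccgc
Keap1: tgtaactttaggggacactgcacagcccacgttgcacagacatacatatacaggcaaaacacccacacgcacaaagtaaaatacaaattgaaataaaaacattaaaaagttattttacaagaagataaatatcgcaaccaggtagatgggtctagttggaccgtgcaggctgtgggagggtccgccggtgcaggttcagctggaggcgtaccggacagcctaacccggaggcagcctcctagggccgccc
The Nfe2l2 stretch held the core once, with its first base 240 bases before the start site, and 70.4% of its bases were G or C. The Keap1 stretch held no match and had 49.6% G or C.

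Matching stretches before a RefSeq start site of 3 enzyme genes are shown with 20 bases on either side, again on the strand of the gene. In these the core reads on the opposite strand, so the capitals show its reverse complement. They lie at chr3:122245403-122245451 (plus strand) for Gclm, chr10:82859094-82859142 (plus strand) for the second of 3 RefSeq start sites of Txnrd1, and chrX:74428909-74428957 (minus strand) for G6pdx. The Txnrd1 and G6pdx stretches precede these RefSeq start sites but lie inside the gene spans given further below.
Gclm: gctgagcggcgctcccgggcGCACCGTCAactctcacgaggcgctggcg
Txnrd1: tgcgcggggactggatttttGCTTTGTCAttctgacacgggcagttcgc
G6pdx: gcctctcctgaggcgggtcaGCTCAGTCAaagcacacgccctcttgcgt
In front of Srxn1, at chr2:152105402-152105505 (plus strand), the capitals mark 2 matches to TGANTCA, the AP-1 site, whose letters overlap those of the antioxidant response element.
Srxn1: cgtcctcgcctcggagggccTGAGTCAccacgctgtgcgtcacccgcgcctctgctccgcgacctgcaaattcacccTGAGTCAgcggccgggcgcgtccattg
RefSeq promoters of 250 bases before to 50 bases after a start site were matched for 8 of the 10 genes, Gclc and Gsr being the others. Of these 8 genes 5 held the core (Nfe2l2, Gclm, Txnrd1, G6pdx and Srxn1, the last in the 50 bases after its start), and so did 16.7% of the 7975 genes that reached 1 FPKM and had a RefSeq promoter. Counted by promoter, Txnrd1 having 3, it was in 5 of 10 for these genes and in 12.4% of all 32851. Of other NRF2 target genes with a promoter 6 of 29 held it, and of the glutathione cycle list 2 of 16. A longer form, the core followed by an A, was in 1 of the 8 genes, Txnrd1, and in 3.10% of the 7975 genes. The AP-1 site was in 1 of the 8, Srxn1, and in 5.74% of the 7975. Counted over all 32851 promoters, these shares were 3.04% and 7.81%. Of the 5 genes with the core, Nfe2l2, Txnrd1, G6pdx and Gclm had log2 ratios below 0, and Srxn1 alone was above, at 0.09. Gclm, at -0.07, was near 0 as well. A missing match says only that these letters are not in this window.

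Among the regulators, Nfe2l2 was lower and Keap1 higher in the antagomir library. Nfe2l2 (ENSMUSG00000015839.6, in build GRCm38 on chromosome 2 from 75675513 to 75704641, minus strand) had 73.0 FPKM, fragments scaled to transcript length and sequencing total, with the negative control and 43.2 FPKM with the antagomir. The antagomir value was lower by 40.8% of the control value. On the scale used for all genes, log2 of (antagomir FPKM + 1) over (control FPKM + 1), this was a log2 ratio of -0.74, or 1.67-fold lower. Of 10201 genes that reached 1 FPKM in the higher library, 8.46% had a lower log2 ratio than Nfe2l2. Its level stood above those of 93.4% of all genes with the control and 88.5% with the antagomir, so the transcript was abundant in both.

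Keap1, the adaptor that presents NRF2 to the ligase (ENSMUSG00000003308.15, chromosome 9 from 21229730 to 21239361, minus strand), had 6.37 FPKM with the negative control and 10.03 FPKM with the antagomir. This was a log2 ratio of 0.58, or 1.4965-fold higher, just short of the 1.5-fold limit used for counts. Of all genes, 89.1% had a lower log2 ratio. Keap1 had the lowest level of the 10 genes in the control library and ranked 8 of 10 in the antagomir library. The ratio of Nfe2l2 FPKM to Keap1 FPKM went from 11.5 (control) to 4.31 (antagomir), 2.66-fold apart. A ratio of genes within a library does not depend on how the library total was scaled. It compares levels of RNA, not of protein.

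**Figure D1:**
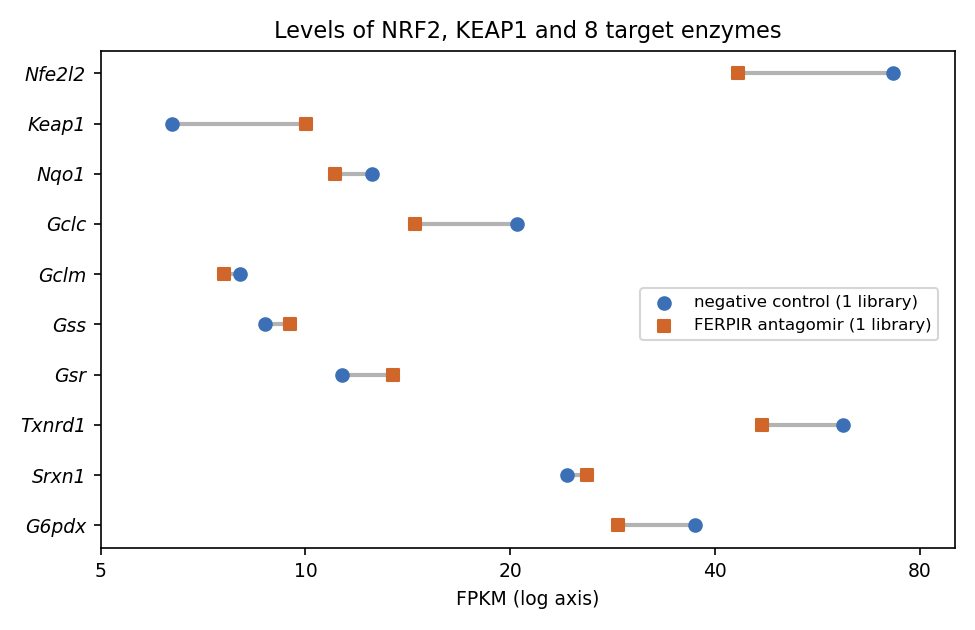
FPKM (log axis) of Nfe2l2, Keap1 and 8 target enzyme genes in the control library (circles) and the antagomir library (squares), 1 library each, so there are no error bars. The widest gaps are those of Nfe2l2, from 73.0 to 43.2 FPKM, and of Keap1, from 6.37 to 10.03 FPKM, which point in opposite directions.

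The 8 enzyme genes differed by less than 1.5-fold each, 5 of them lower and 3 higher in the antagomir library, at a limit past which 13.4% of all genes were lower and 10.8% higher. Their log2 ratios ran from -0.47 for Gclc to 0.23 for Gsr, with a median of -0.12. Their FPKM summed to 184 with the control and 157 with the antagomir, 14.5% less. No interval can be put on this difference, since the depth behind FPKM is unknown.

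Glutathione is made in 2 steps, and the genes of both were measured. Gclc, the catalytic subunit of glutamate-cysteine ligase, the rate-limiting enzyme (chromosome 9 from 77754535 to 77794485), had 20.5 FPKM with the negative control and 14.5 FPKM with the antagomir, a log2 ratio of -0.47. Gclm, the modifier subunit that improves its affinity for substrate (chromosome 3 from 122245557 to 122270732), had 8.01 and 7.58 FPKM, or -0.07 as a log2 ratio, which turned to 0.07 once a fitted trend over the length and GC content of transcripts was taken out. Gclc was thus the lower of the 2 subunits relative to its control level, and the ratio of Gclc FPKM to Gclm FPKM went from 2.56 (control) to 1.91 (antagomir). Gss, glutathione synthetase, which adds glycine in the last step (chromosome 2 from 155563181 to 155592810), had 8.73 and 9.49 FPKM, for a log2 ratio of 0.11. The 3 synthesis genes together had 37.2 and 31.5 FPKM, and Gclc alone dropped by 6.01 FPKM, more than the sum did.

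Enzymes that recycle thiols were not on one side. Gsr, glutathione reductase, which returns oxidised glutathione to its reduced form with NADPH (chromosome 8 from 33652523 to 33698163), had 11.3 FPKM with the negative control and 13.4 FPKM with the antagomir, a log2 ratio of 0.23. Txnrd1, the cytosolic selenoenzyme that reduces thioredoxin (chromosome 10 from 82833951 to 82897712), had 61.6 and 46.8 FPKM, for a log2 ratio of -0.39. The 2 reductases thus stood on opposite sides of 0, and the ratio of Txnrd1 FPKM to Gsr FPKM went from 5.44 (control) to 3.49 (antagomir). Txnrd1 had the highest level of the 10 genes in the antagomir library and the second highest, after Nfe2l2, in the control. Srxn1, sulfiredoxin, which repairs over-oxidised peroxiredoxins (chromosome 2 from 152105516 to 152111376), had 24.2 and 25.9 FPKM, for a log2 ratio of 0.09.

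Nqo1, a quinone reductase and a widely used readout of NRF2 activity (chromosome 8 from 107388225 to 107403206), had 12.5 FPKM with the negative control and 11.03 FPKM with the antagomir, a log2 ratio of -0.17. This lay near the middle of all genes, 39.5% of which had a lower ratio. With the length and GC trend taken out the log2 ratio of Nqo1 was -0.32. G6pdx, glucose-6-phosphate dehydrogenase, which feeds NADPH to both reductases from the pentose phosphate pathway (chromosome X from 74409483 to 74429194), had 37.4 and 28.8 FPKM, for a log2 ratio of -0.37. G6pdx has a retrotransposed copy, G6pd2, without a value in the table used here, so fragments of the copies may not be separable.

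**Figure D2:**
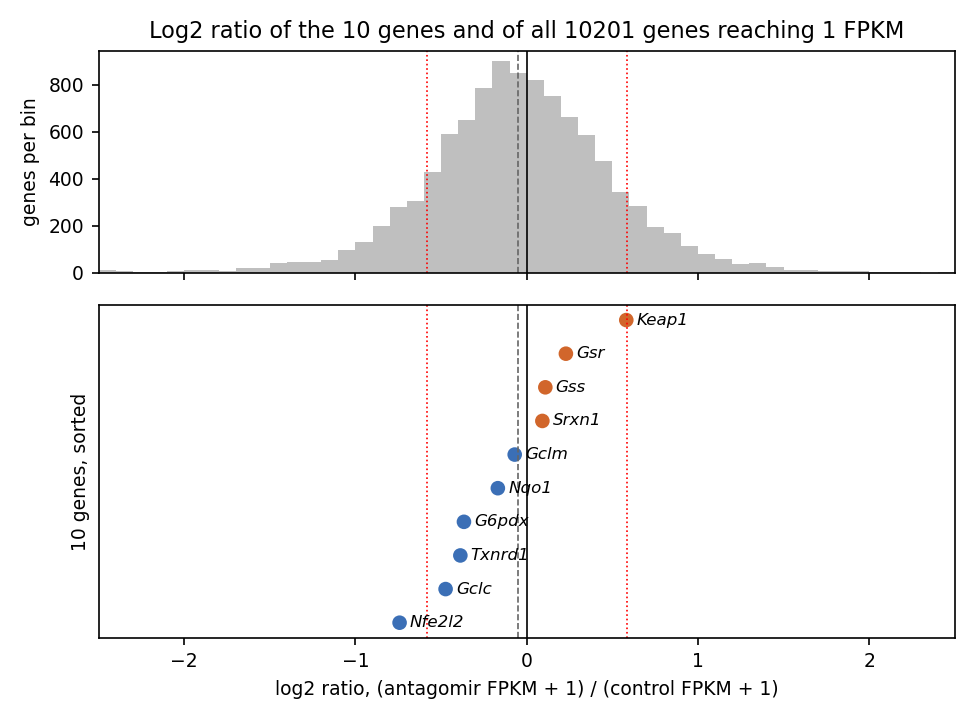
Upper panel: number of genes per bin of 0.1 in log2 ratio for the 10201 genes reaching 1 FPKM, with values beyond 2.5 on either side drawn in the last bin. Lower panel: the 10 genes, sorted; the dashed line is the median of all genes, -0.05, and the dotted lines are 1.5-fold. Nfe2l2 at -0.74 is the single gene beyond a dotted line, Keap1 at 0.58 lies just inside the other, and the 8 enzyme genes lie between.

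Set against all genes, the shares of the group past the limits were near or under the background. At the 1.5-fold limit 1 of the 10 genes was lower (Nfe2l2), where 13.4% of the 10201 genes were, and none was higher, where 10.8% were. At 2-fold none was lower or higher, where 3.79% and 2.88% of genes were. The median log2 ratio was -0.12 for the 10 genes and -0.05 for all genes, and 6 of 10 were below 0, where 54.0% of all genes were. Of the 10, 5 lay within the middle 50% of all log2 ratios, from -0.36 to 0.29. When the FPKM were rescaled to TPM, with the same pseudocount, 19.97% of all genes were at least 1.5-fold lower and 10.5% higher, and the counts for the 10 genes stayed at 1 and 0.

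How the ratio was computed decided on which side of the limit Keap1 fell. Its log2 ratio was 0.65 with a pseudocount of 0.1 or 0.01 FPKM, 0.63 after centring on the median of all genes and 0.59 with the length and GC trend taken out, each past 1.5-fold. It was 0.55 as TPM and 0.53 after rescaling to a total that left out ribosomal protein, hemoglobin and mitochondrially encoded genes. Nfe2l2 stayed past 1.5-fold lower in all 7 computations, between -0.83 and -0.69. Of the 10 genes Gclm alone changed sign, and Srxn1 and Gss came as near to 0 as 0.01 and 0.02.

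**Figure D3:**
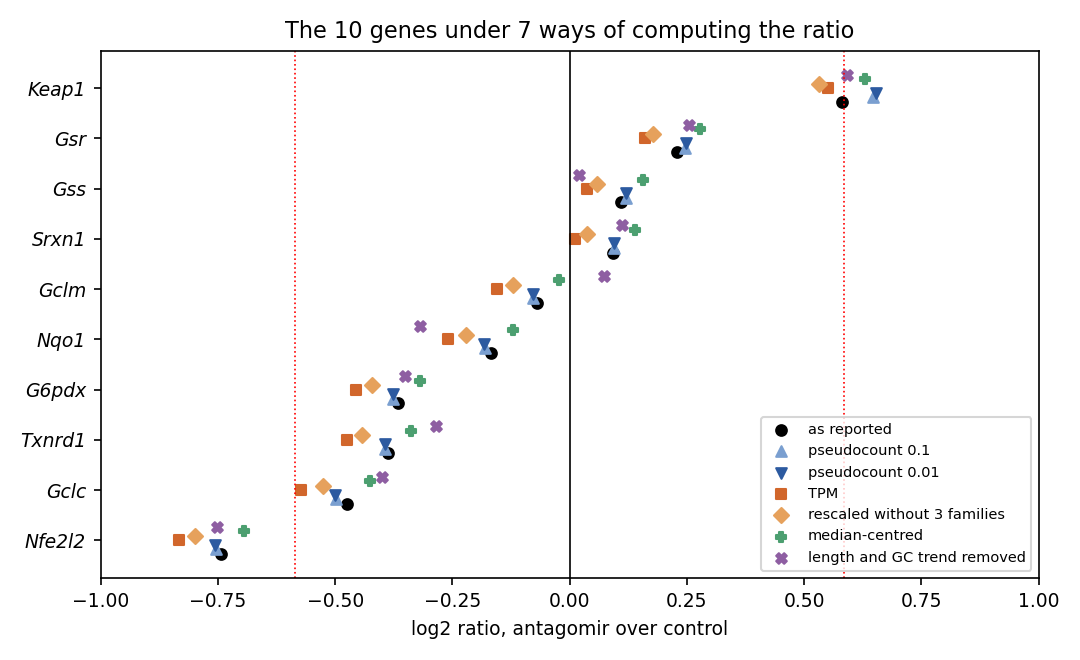
Log2 ratio of each of the 10 genes under 7 ways of computing it from the same 2 libraries; dotted lines are 1.5-fold. Nfe2l2 lies between -0.83 and -0.69 throughout, Keap1 between 0.53 and 0.65 on both sides of the dotted line, and Gclm on both sides of 0.

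Exons of 4 of the 10 genes overlap those of another annotated gene, and whether fragments were assigned by strand is not given in the sources used here. Keap1 overlaps the antisense gene Gm16754, Gss overlaps Acss2 and 2 antisense genes, Gclm overlaps a pseudogene and a non-coding gene, and G6pdx overlaps Ikbkg on the opposite strand. Ikbkg had 1.51 FPKM with the negative control and 2.51 FPKM with the antagomir, and Acss2 had 0.92 and 0.92 FPKM, levels well below those of G6pdx and Gss. For Gm16754 there was no value, so how far it adds to the Keap1 value was not tested. The 6 genes without overlap, 4 lower and 2 higher, had a median log2 ratio of -0.28.

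The wider pathway was followed through 5 lists of genes, in which only genes that reached 1 FPKM were counted. Several genes of these lists also have exons that overlap those of another annotated gene. Among those named, they are Mafg, Mafk, Sqstm1, Syvn1, Ep300, Slc48a1, Glo1, Txnip, Txnl4a, Txnrd2, Pgls and Aldh1l2. Their counts can be read against the 13.4% of all genes that were at least 1.5-fold lower and the 10.8% that were higher, and their medians against -0.05. Of the regulators and partners of NRF2, 20 of 23 listed genes were used, with a median log2 ratio of -0.16; 5 were at least 1.5-fold lower and 2 higher. Cul3, the scaffold of the ligase that ubiquitinates NRF2, had 23.6 FPKM with the negative control and 14.4 FPKM with the antagomir, 1.60-fold lower, while Rbx1, its RING subunit, had 135 and 156 FPKM. Sqstm1, which encodes p62, an autophagy receptor that sequesters KEAP1, had 434 and 279 FPKM, 1.55-fold lower, and it is also a known NRF2 target. The parts of the ligase that acts on NRF2 thus differed in direction, Keap1 being higher and Cul3 lower.

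Lower still were Syvn1, Sesn2 and Ep300, of which Syvn1 and Sesn2 belong to stress pathways as well. Syvn1, an endoplasmic reticulum ubiquitin ligase reported to act on NRF2 (9.98 and 2.43 FPKM), was 3.20-fold lower, with exons that overlap Mrpl49. Sesn2, a stress-induced sestrin that aids the removal of KEAP1, had 25.004 and 9.49 FPKM, 2.48-fold lower. The acetyltransferase gene Ep300, a coactivator, had 3.80 and 1.77 FPKM. On the other side Rxra, a nuclear receptor that can bind and restrain NRF2, had 5.16 and 9.77 FPKM, 1.75-fold higher, and Park7, which encodes the redox protein DJ-1, had 68.3 and 105 FPKM, 1.52-fold higher. The MAF partners were split, with Mafg and Mafk at log2 ratios of -0.24 and -0.30 and Maff at 0.40, and Bach1, the repressor that competes for the same element, was at 0.43. In all 7 computations 4 of the 5 lower genes and 1 of the 2 higher genes stayed past 1.5-fold. With the length and GC trend taken out Cul3 was at -0.53 and Park7 at 0.23.

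Among other NRF2 target genes 35 of 40 listed were used, with a median log2 ratio of -0.09; 7 were at least 1.5-fold lower and 5 higher, 4 and 2 of them at least 2-fold. Hmox1, heme oxygenase, which frees iron from heme, stood at the low end with 194 FPKM with the negative control and 53.9 FPKM with the antagomir. Also lower were the exporter gene Abcc4 (6.02 and 1.72 FPKM), the heme transporter gene Slc48a1 (54.8 and 29.1 FPKM) and the glutathione transferase genes Gsta1 (6.41 and 2.02 FPKM), Gsta4 (396 and 194 FPKM) and Gstm1 (70.4 and 43.1 FPKM). Transferase genes have close relatives among which fragments can be split, so their values are uncertain. Slc7a11, the cystine importer that supplies glutathione synthesis, had 1.64 and 0.57 FPKM, for a log2 ratio of -0.75 that rests on low values.

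Higher at the other end was Ptgr1, a reductase of reactive lipid aldehydes and prostaglandins, with 16.7 FPKM with the negative control and 41.8 FPKM with the antagomir, 2.42-fold. Cbr3, a carbonyl reductase, had 13.5 and 28.7 FPKM, 2.05-fold higher. Txn1, thioredoxin, the substrate of Txnrd1, had 397 and 675 FPKM, 1.70-fold higher, so thioredoxin and its reductase differed in opposite directions. Blvrb, a biliverdin reductase, had 12.2 and 20.3 FPKM, and Mgst2, a microsomal transferase, 1.47 and 3.22 FPKM. Fth1, the ferritin heavy chain, had 3132 and 3120 FPKM. With all 7 computations required, 6 of the 7 lower genes and 2 of the 5 higher genes, Ptgr1 and Cbr3, stayed past 1.5-fold. With the length and GC trend taken out the log2 ratio was -0.56 for Slc7a11, 0.43 for Txn1, 0.29 for Blvrb and 0.15 for Mgst2. Over all genes, the share at least 1.5-fold higher was 10.8% as reported and 7.57% with this trend taken out. The share at least 1.5-fold lower was 13.4% and 13.1%. After median centring 12.3% were higher and 11.6% lower, and as TPM 10.5% and 19.97%. The share of all genes past 1.5-fold in every computation was not counted. For this and the other lists, the counts that stayed past it therefore have no background to be read against.

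**Figure D4:**
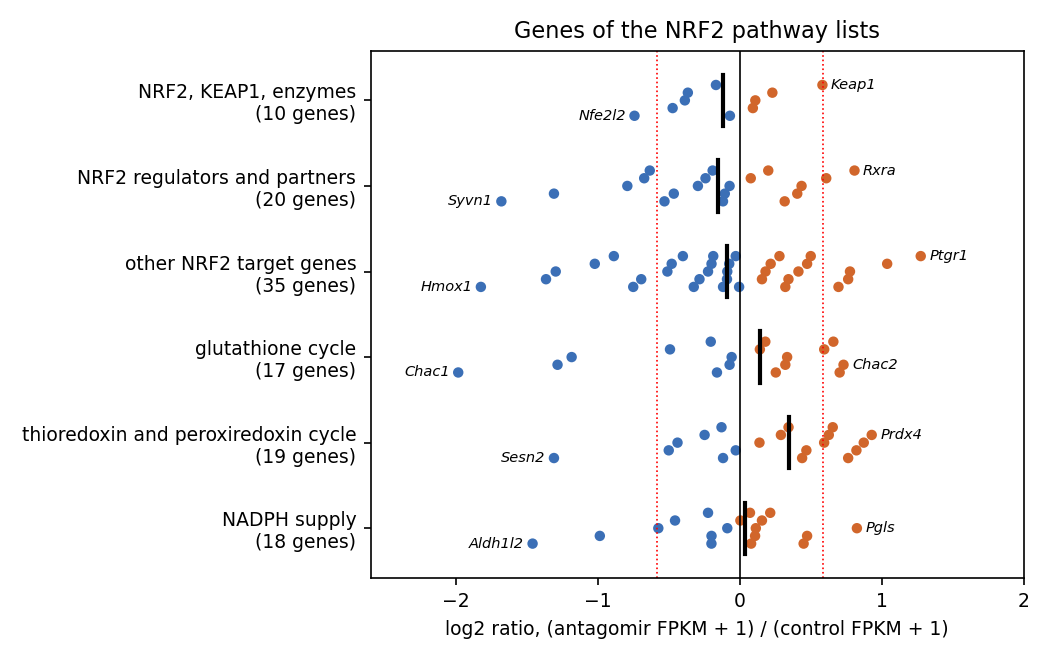
Log2 ratio of each gene that reached 1 FPKM in the 10-gene group and 5 pathway lists, with the lowest and the highest gene of each named; black bars are medians and dotted lines 1.5-fold. Medians run from -0.16 for regulators and partners to 0.34 for the thioredoxin and peroxiredoxin cycle, where it was 0.17 with the length and GC trend taken out, and a gene on several lists appears in each.

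The glutathione cycle list, enzymes that use, degrade or recycle glutathione, had a median log2 ratio of 0.14 over 17 of 21 genes, 3 of them at least 1.5-fold lower and 4 of them higher. This median was -0.08 with the length and GC trend removed. The lower genes were Chac1, which degrades glutathione (140 and 34.6 FPKM, for a log2 ratio of -1.98), Gpx3, a secreted peroxidase (30.4 and 11.9 FPKM), and Anpep, an aminopeptidase that splits cysteinylglycine (13.4 and 5.34 FPKM). The paralogue of Chac1, Chac2, was higher, with 9.97 and 17.2 FPKM. So were the glutaredoxin genes Glrx5 (17.1 and 28.5 FPKM) and Glrx (1.31 and 2.48 FPKM), and Glo1 (112 and 177 FPKM), which detoxifies methylglyoxal with glutathione. The 3 lower genes and 1 of the 4 higher genes, Glrx5, stayed past 1.5-fold in all 7 computations.

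Over thioredoxin and peroxiredoxin genes the median log2 ratio was 0.34, from 19 of 21 genes, and 7 were at least 1.5-fold higher and 1, Sesn2, was lower. This median was 0.17 with the length and GC trend taken out. Prdx4, the peroxiredoxin of the endoplasmic reticulum, had 58.6 and 112 FPKM, for a log2 ratio of 0.93, and Nxn, nucleoredoxin, had 23.5 and 42.3 FPKM. Msrb1, a methionine sulfoxide reductase, had 37.7 and 59.9 FPKM, and Sesn1, a sestrin, 5.86 and 9.35 FPKM. Txnl4a, a splicing factor with a thioredoxin fold (11.4 and 18.1 FPKM), and Txnip, the thioredoxin-binding inhibitor (0.13 and 1.06 FPKM), were past the limit too, Txnip from low values. The relatives of Txnrd1, Txnrd2 of mitochondria and Txnrd3, had log2 ratios of -0.13 and -0.44, below 0 as Txnrd1 was. Of the 7 higher genes 3 stayed past the limit in all 7 computations.

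The NADPH supply list, from which 18 of 20 genes were used, had a median of 0.04, and 2 genes were at least 1.5-fold lower while 1 was higher; the median was -0.04 as TPM. Next to G6pdx in the pentose phosphate pathway, Pgls, the lactonase, had 25.4 and 45.8 FPKM, 1.77-fold higher, with exons that overlap Fam129c and a log2 ratio of 0.20 when the length and GC trend was taken out. Pgd, the second NADPH-forming step, had 32.6 and 36.4 FPKM, for a log2 ratio of 0.16. The oxidative branch was therefore mixed, with G6pdx below 0 and both later steps above. The 2 lower genes were mitochondrial folate enzymes, Aldh1l2 (96.7 and 34.5 FPKM) and Mthfd2 (112 and 55.9 FPKM).

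Values of the whole series that bear on these results are few. All FPKM summed to 295404 with the control and 312806 with the antagomir, and the median gene had 6.74 and 6.31 FPKM. Log2 ratios were lower for longer transcripts, the median being 0.28 among the shortest of 5 equal length groups and -0.20 among the longest, and the longest coding transcripts of the 10 genes ranged from 1553 (Nqo1) to 5589 bases (Gclm). Without a value for FERPIR itself, its knockdown was not measured. Of 16 cardiomyocyte markers 3 had a value, summing to 12.7 FPKM with the negative control and 32.3 FPKM with the antagomir. Of these Tnnt2 (1.48 and 8.19 FPKM) and Tnnc1 (4.39 and 18.9 FPKM) were higher and Nppb (6.86 and 5.28 FPKM) was lower. Myh6, Myh7, Tnni3, Actc1, Actn2, Ttn, Nppa, Myl2, Myl7, Myl3, Ryr2, Pln and Mybpc3 were without a value. None of the 3 with a value was listed at 0. The lowest level of any gene in its higher library was 0.50 FPKM, so genes under about that level may have been left out. Whether Myh6 and the other markers without a value were among these was not tested. Of 8 fibroblast markers 6 had a value, summing to 548 and 341 FPKM, with Col1a1 at 58.5 and 24.2 FPKM. Most of the sum was Col3a1 (358 and 249 FPKM). Of the 6, 5 were lower and 1, Pdgfra (1.19 and 1.66 FPKM), was higher. Of 5 smooth muscle markers 4 had a value, summing to 1669 and 1308 FPKM, but only Acta2 was lower (1304 and 845 FPKM), while Des, Tagln and Cnn1 were higher and the median log2 ratio was 0.39. Of 8 macrophage and blood markers 2 had a value, summing to 13.5 and 15.96 FPKM, and Ptprc was not among them. Of 3 epicardial markers 1 had a value, Msln, with 16.6 and 9.80 FPKM, and none of 6 endothelial markers had one, Pecam1 included. The fibroblast and smooth muscle sums and Msln were lower in the same library as Nfe2l2. The cardiomyocyte sum and the macrophage and blood sum were higher there. What part any of these cell types had in the Nfe2l2 value was not tested. In bulk RNA fewer cells of a type and less RNA per cell cannot be told apart. The fibroblast and smooth muscle sums were far above the cardiomyocyte sum in both libraries. The markers thus did not by themselves bear out the cardiomyocyte label, and the make-up of the cultures was not tested.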

How the data were processed

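RNA sequencing of 2 libraries, 1 per group by sample title, was analysed from the gene table in FPKM that the authors deposited. Per the submitters' processing notes, cutadapt, HISAT2 and StringTie 1.3.3 were used with build GRCm38. Which annotation and settings were used, and whether strand was, is not given in the sources used here. The table held 10992 protein-coding rows, and lines of the 10 repeated symbols were summed. Whole-read steps were searched for in FPKM below 5 multiplied by transcript length. At best 34.9% of 109 values in the control and 29.5% of 105 in the antagomir library were within 0.1 of a whole number, where 20% is chance, so the depth is unknown.

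The log2 ratio used a pseudocount of 1 FPKM, so differences between low values come out too small, and folds follow that scale. Counts at 1.5-fold and 2-fold took genes with 1 FPKM or more in either library. The 10 genes and all lists were chosen with earlier results of these data known. Named genes were the 10 and, from each list, genes reaching 1 FPKM and 1.5-fold apart, with further genes at either end that reached 5 FPKM. Fth1, Rbx1, Maff, Mafg, Mafk, Bach1, Pgd, Txnrd2 and Txnrd3 are outside this rule and were chosen after their values were seen.

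Alternatives were other pseudocounts, minima of 5 FPKM or none, TPM, rescaling without 3 gene families, median centring, and removal of a trend over length and GC content by lowess. Length, GC content and exon overlaps came from GENCODE M21, in which 10972 gene identifiers were found and whose coordinates equalled those of the table for all 10 genes. Each gene's longest coding transcript gave its length and GC content. Promoters came from RefSeq on GRCm38.p6. The log2 ratio, the 1.5-fold limit and the trend removal were tested on simulated data with a trend over length built in. Other steps were not tested in this way. The computations used statsmodels 0.14.6, numpy 2.4.6, pandas 2.3.3 and matplotlib 3.10.9 under Python 3.11.15.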

Additional observations from a re-analysis of the deposited data

How the results depend on the processing

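The count of the 10 genes at least 1.5-fold higher was 0 as reported and 1, Keap1, with a pseudocount of 0.1 FPKM, with one of 0.01 FPKM, after median centring and with the length and GC trend removed. The fold of Keap1 lay so close to the limit that each of these small shifts carried it across. The count at least 1.5-fold lower was 1, Nfe2l2, under every alternative run. No value past 1.5-fold changed sign, but 3 values near 0 did: Gclm, at -0.07 as reported and 0.07 with the trend removed, and 2 list medians. The median of the 10 genes ran from -0.21 as TPM to -0.07 after centring, and was -0.28 over the 6 genes without exon overlap, an alternative chosen after seeing the data. With the longer form of the response element 1 of 8 genes matched in place of 5, by construction a stricter search. These were the medians of the NADPH supply list (0.04 as reported, -0.04 with a minimum of 5 FPKM and as TPM, -0.01 after rescaling without 3 families) and of the glutathione cycle list (0.14 as reported, -0.08 with the trend removed). No paired analysis was possible because each group had 1 library, and no library could be left out for the same reason. The depth is unknown, so counting error could not be bounded for any gene, the low ones included.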

Other observations

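Across all genes with a RefSeq promoter and at least 1 FPKM, 1335 of 7975 held the antioxidant response element core. Their median log2 ratio was -0.09, against -0.04 for genes without it, and 14.5% of them were at least 1.5-fold lower, against 13.0%. The share at least 1.5-fold higher was 10.04% with the core and 10.08% without. The 458 genes with an AP-1 site in the same window had a median of -0.09, against -0.05 without, and 19.7% of them were at least 1.5-fold lower, against 12.8%, while 11.8% and 9.96% were higher. These are descriptions across genes of 2 libraries, and genes are not independent replicates.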
